A study of Homo sapiens with 6 samples.

Results

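Nonsense-mediated decay factors are the proteins that find and destroy mRNAs whose translation ends too early. They were followed here in HCT116 cells through 9 genes chosen by name, UPF1, UPF2, UPF3A, UPF3B, SMG1, SMG5, SMG6, SMG8 and SMG9. All 9 were listed, out of 19871 gene symbols, with 96 transcripts out of 92866. In this pathway a ribosome that stops upstream of an exon junction complex, the protein mark that splicing leaves on mRNA, recruits the RNA helicase UPF1. UPF2 and UPF3B link UPF1 to that mark, the kinase SMG1 phosphorylates UPF1 while SMG8 and SMG9 hold the kinase in check, and phosphorylated UPF1 attracts the endonuclease SMG6 and the adaptor SMG5. The noncoding RNA GAS5 carries a short open reading frame and is a known substrate of this decay, and several mRNAs of the decay factors are themselves substrates, which gives the pathway a feedback loop.

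HCT116, a human colorectal cancer cell line, was sequenced in 3 groups of 2 libraries, 6 in all, with a strand-specific protocol. The groups were a negative control (NC), cells transfected with a GAS5 plasmid (GAS5) and cells given an siRNA against YAP (siYAP), and the comparisons ask what more GAS5 or less YAP does to the transcriptome. The time after transfection, the siRNA sequence used for sequencing and whether the NC cells received an empty plasmid are not given in the sources used here, and the labels enter all 3 groups in the siRNA field. Every value below is the authors' mean over a group, so no spread between libraries and no test of any difference could be had, and nothing states whether the libraries came from separate cultures.

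Per group, the mean counts totalled 27206123 (NC), 25521577 (GAS5) and 26298036 (siYAP). YAP1, the target of the siRNA, had 3480 mean counts in NC against 2679 in GAS5 and 1444 in siYAP, a log2 difference from NC of -1.18 in siYAP and -0.26 in GAS5. GAS5 RNA itself was not analysed here. The epithelial markers KRT8, KRT18, KRT19, EPCAM, CDH1 and CDX2 were expressed in every group, while VIL1 had at most 6 mean counts and CDX1 had 0. Among markers of blood, vessel and connective tissue cells, PTPRC was at 0, CD3E, PECAM1 and COL1A2 had at most 6 mean counts, PDGFRB and VWF had 7.5 to 47, and COL1A1 had 378.5 to 556. All 6 interferon-stimulated genes examined were higher by more than a fold of 2 in GAS5, with a median log2 difference of 3.22, against a median of 0.00 in siYAP, and their part in any value of the decay factors was not tested.

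For 3 members, a coding segment present in only 1 of a pair of annotated transcripts is shown, because the shares of these pairs are compared below. The pairs were chosen by hand, without a search of all members. Annotated transcripts of other members also differed in coding length, such as those of SMG9 (1560 and 1485 bases) and SMG1 (10983 and 10653 bases). Their segments are not shown. The share intervals of NC and both treated groups were apart for UPF1 and UPF3B and overlapped for UPF3A. The sequences come from the GENCODE release 29 transcripts on GRCh38, are written 5′ to 3′ on the coding strand, and have the alternative segment in capitals with 15 bases of neighbouring coding sequence on each side in lower case. Exon numbers are those of the longer transcript.
UPF1, chr19:18853072-18853104, plus strand, the 3′ end of exon 7, 33 bases: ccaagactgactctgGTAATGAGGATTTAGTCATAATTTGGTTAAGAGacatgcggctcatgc
UPF3A, chr13:114286302-114286400, plus strand, the whole of exon 4, 99 bases: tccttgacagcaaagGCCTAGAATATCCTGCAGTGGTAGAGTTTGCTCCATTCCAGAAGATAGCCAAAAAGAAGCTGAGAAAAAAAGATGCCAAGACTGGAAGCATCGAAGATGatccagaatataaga
UPF3B, chrX:119840646-119840684, minus strand, the whole of exon 8, 39 bases: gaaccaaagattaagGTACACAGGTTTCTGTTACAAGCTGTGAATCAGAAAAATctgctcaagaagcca
Each segment is a multiple of 3 bases long, so the reading frame is kept with or without it, and it adds 11 codons in UPF1, 33 in UPF3A and 13 in UPF3B. The UPF1 segment lies in a loop of the helicase core that separates the long-loop from the short-loop form of the enzyme.

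Seen as a group, the decay factors were mostly a little higher in GAS5 and a little lower in siYAP than in NC. A log2 difference below is the log2 ratio of summed counts of a gene after scaling the libraries by TMM and adding a prior count of 2, and its 95% counting interval comes from the exact binomial interval of the counts. The interval takes in counting error only, so how far separate cultures vary stays unknown, and reads without molecular identifiers are not independent molecules. Counts of single transcripts are estimates, and intervals of their differences and shares also leave out error in dividing reads between transcripts. GAS5 counts were multiplied by 1.09 and siYAP counts by 1.06 for the comparison with NC. All 9 members passed the low-count filter in all comparisons. In bulk RNA, fewer cells with an mRNA and less of it per cell cannot be told apart.

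In GAS5, 7 members were above NC and 2 below, with a median log2 difference of 0.15, where all 13379 genes had a median of 0.00 and 50.2% of them lay above 0. Of the 7, UPF2 and SMG1 stood at 0.02 and came out at -0.010 and -0.0026 when libraries were scaled by total counts. In siYAP, 2 members were above NC and 7 below, with a median of -0.17 against a median of 0.00 over 13308 genes. These comparisons share the NC mean, so an error in the NC value of a gene moves both. GAS5 against siYAP does not use NC, and there 8 members were higher in GAS5 and 1 was lower, with a median of 0.30 against 0.00 over 13386 genes. The summed mean counts of the 9 members were 24695 in NC against 25046 in GAS5 and 20820 in siYAP. Their log2 difference from NC was 0.14 in GAS5 and -0.16 in siYAP. SMG1, whose value is uncertain, supplied 10910 of the NC counts. The sum of the 8 members without SMG1 had a log2 difference from NC of 0.22 in GAS5 and -0.07 in siYAP. The lower siYAP sum thus depended in large part on SMG1, while the GAS5 sum was higher without it.

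The differences were small. At a log2 difference of at least 0.32, 3 of 9 members were higher in GAS5 than in NC (UPF1, SMG5 and SMG8), where 13.2% of all genes were. No member was lower by that much, against 11.9% of all genes. No member passed a fold of 1.5 in either direction, against 8.48% of all genes, or a fold of 2, against 3.09%. In siYAP, 0 members were higher than NC by 0.32 or more, against 15.9% of all genes, and 2 of 9 were lower (UPF2 and UPF3B), against 16.8%. UPF3B alone passed a fold of 1.5 in siYAP, where 10.3% of all genes did, and no member passed a fold of 2, where 2.28% did. Between GAS5 and siYAP, 4 of 9 members were higher in GAS5 by 0.32 or more (UPF2, UPF3A, UPF3B and SMG5), against 20.2% of all genes, and 0 were lower, against 20.3%. None passed a fold of 1.5 in that comparison, against 16.7% of all genes, or a fold of 2, against 4.66%. Higher members thus made up 33.3% in GAS5 against NC and 44.4% in GAS5 against siYAP, and with 9 genes each gene moves such a share by 11.1 percentage points.

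**Figure D1:**
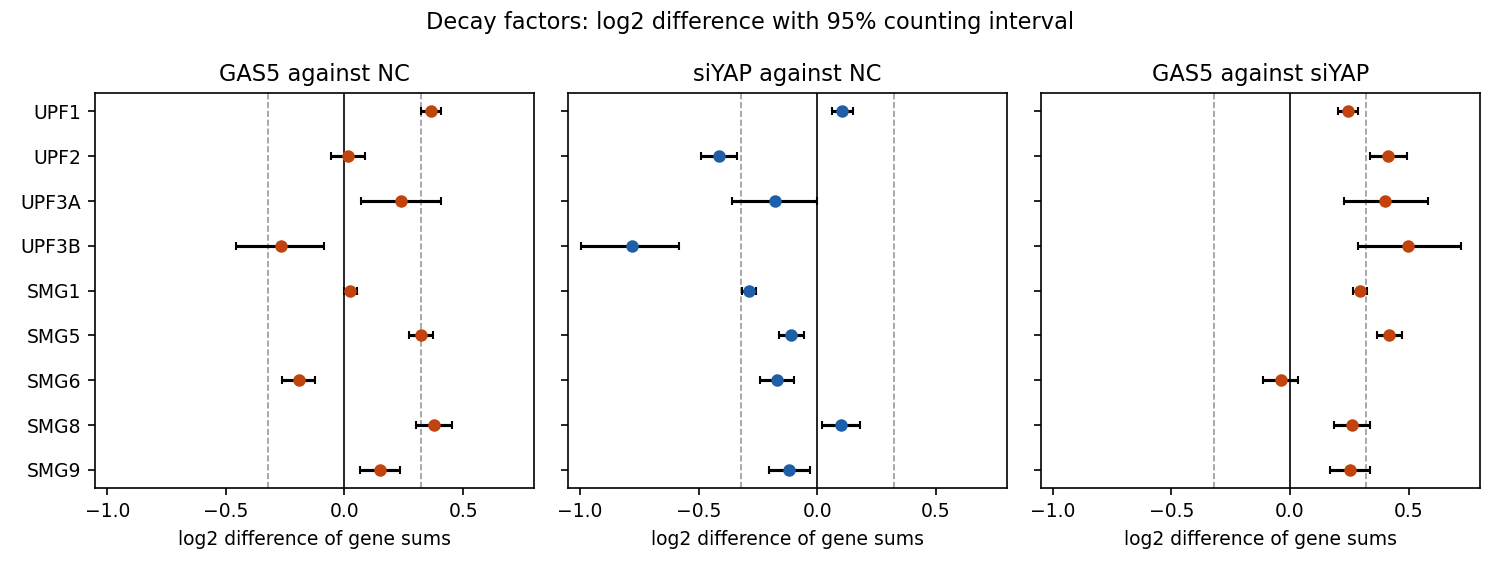
Log2 difference of gene sums (horizontal axis) of the 9 decay factors in the 3 comparisons, with points at the values, bars for 95% counting intervals and dashed lines at 0.32 in either direction. In GAS5 against siYAP 8 of 9 points lie to the right of 0, and UPF3B lies farthest to the left in siYAP against NC, at -0.78.

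UPF1, the helicase at the centre of the pathway, lies on chr19:18831938-18868236, plus strand. It had 4365.5 mean counts in NC against 5180.5 in GAS5 and 4429.5 in siYAP. GAS5 was the high group, with a log2 difference from NC of 0.36 (counting interval 0.32 to 0.41), while siYAP stood closer to NC at 0.11 (0.06 to 0.15). The value in GAS5 exceeded that of 89.2% of all genes. SMG8 was the other member above NC in both treated groups.

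UPF2, the bridge between UPF1 and the UPF3 proteins, lies on chr10:11920022-12043170, minus strand. It had 1641.5 mean counts in NC against 1529.5 in GAS5 and 1161 in siYAP. After scaling, GAS5 and NC could not be told apart within counting error (log2 difference 0.02, -0.06 to 0.09), and siYAP was the low group at -0.41 (-0.49 to -0.34). Against siYAP, GAS5 was higher by 0.42 on the log2 scale (0.34 to 0.49).

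UPF3A and UPF3B are paralogs, of which UPF3B is the stronger activator of decay and UPF3A the weaker. UPF3A, on chr13:114281584-114305817, plus strand, had 280 mean counts in NC against 304.5 in GAS5 and 233 in siYAP. Its log2 difference from NC was 0.24 in GAS5 (0.07 to 0.41) and -0.18 in siYAP (-0.36 to 0.00). UPF3B, on chrX:119805311-119852998, minus strand, started from nearly the same NC value, 279.5 mean counts, and had 213.5 in GAS5 and 152.5 in siYAP.

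UPF3B was the lowest member in both comparisons with NC, at -0.27 in GAS5 (-0.46 to -0.09) and -0.78 in siYAP (-0.99 to -0.58). In siYAP 2.77% of all genes had a lower value. In GAS5 the paralogs thus stood on opposite sides of NC, and in siYAP both were below it with intervals that did not overlap. Between the treated groups UPF3B was higher in GAS5 by 0.50 on the log2 scale (0.29 to 0.72), the largest such difference of any member.

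SMG1, the kinase of UPF1, lies on chr16:18804853-18926454, minus strand, and had the most counts, 10910 in NC against 10220 in GAS5 and 8430 in siYAP. Its log2 difference from NC was 0.02 in GAS5 (-0.0038 to 0.05) and -0.29 in siYAP (-0.32 to -0.26). The SMG1 value is uncertain, because chromosome 16 holds near-identical partial copies of the gene and 46 of its 56 listed transcripts were assembled from the reads and carry the name through likeness to SMG1 proteins. The assembled transcripts held 45.7% of its NC counts, with log2 differences from NC of 0.09 in GAS5 and -0.47 in siYAP. The 10 Ensembl transcripts alone gave -0.03 in GAS5 (-0.07 to 0.01) and -0.15 in siYAP (-0.19 to -0.11). The lower siYAP value of SMG1 was thus seen in both kinds of transcript and was larger in the assembled ones.

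SMG8 and SMG9, the subunits that bind SMG1 and restrain it, differed in how far they stood from NC. SMG8, on chr17:59209400-59215247, plus strand, had 1293 mean counts in NC against 1546 in GAS5 and 1307 in siYAP. Its log2 difference of 0.38 in GAS5 (0.30 to 0.45) was the highest of all members, beside 0.10 in siYAP (0.02 to 0.18). SMG9, on chr19:43727992-43754990, minus strand, had 1173.5 mean counts in NC against 1199.5 in GAS5 and 1019 in siYAP. Its differences were smaller and lay on both sides of NC, at 0.15 in GAS5 (0.07 to 0.23) and -0.12 in siYAP (-0.20 to -0.03).

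SMG5 and SMG6 act after phosphorylation of UPF1, SMG5 as an adaptor that leads the mRNA to deadenylation and decapping and SMG6 as the nuclease that cuts near the premature stop codon. SMG5, on chr1:156249224-156282825, minus strand, had 2951.5 mean counts in NC against 3403.5 in GAS5 and 2579.5 in siYAP. It was higher in GAS5 at 0.32 (0.27 to 0.37), which at 0.324 only just passed the limit of 0.322 and ranged from 0.30 to 0.32 over the alternatives tried, and lower in siYAP at -0.11 (-0.16 to -0.05). SMG6, on chr17:2059839-2303771, minus strand, had 1800 mean counts in NC against 1450 in GAS5 and 1509 in siYAP.

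SMG6 was below NC in both treated groups by nearly the same amount, -0.19 in GAS5 (-0.26 to -0.12) and -0.17 in siYAP (-0.24 to -0.10). It was the only member that was not higher in GAS5 than in siYAP, at -0.04 (-0.11 to 0.03). The 2 routes downstream of phosphorylated UPF1 thus had different values in GAS5, with the SMG5 interval above 0 and the SMG6 interval below it.

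**Figure D2:**
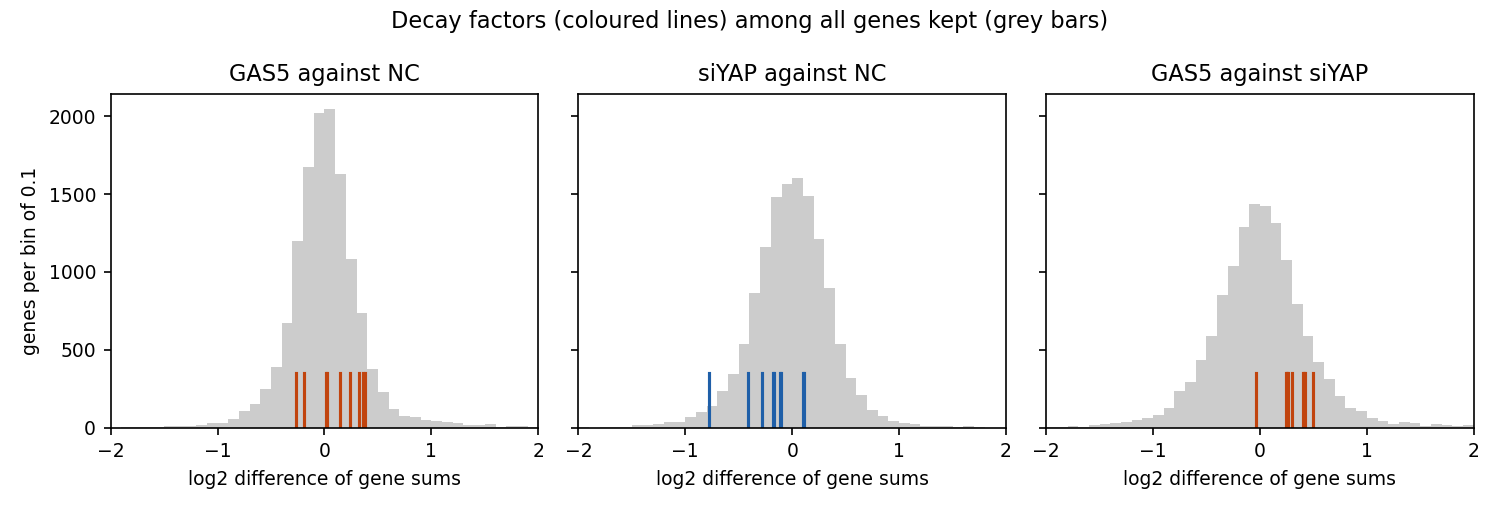
Number of genes (vertical axis) per bin of 0.1 in log2 difference of gene sums (horizontal axis) in each comparison, with coloured lines at the 9 decay factors. The members lie between -0.27 and 0.38 for GAS5 against NC, and for siYAP against NC UPF3B stands in the lower tail at -0.78 while the others lie between -0.41 and 0.11.

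Levels of different genes were compared only per length, as summed mean FPKM. SMG1 was highest at 88.4 FPKM in NC against 95.6 in GAS5 and 67.8 in siYAP, and its Ensembl transcripts alone had 21.1, 20.9 and 17.4. UPF1 followed at 31.0, 39.0 and 32.5 FPKM and SMG5 at 23.3, 28.6 and 21.1. The Ensembl transcripts of UPF1 alone had 6.05, 10.6 and 6.50 FPKM. The first places of SMG1 and UPF1 therefore rest on assembled transcripts, and over Ensembl transcripts alone SMG5 was highest, followed by SMG1, in all 3 groups.

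SMG8 had 14.5 FPKM in NC against 18.4 in GAS5 and 15.0 in siYAP, and SMG9 had 14.3, 15.0 and 12.5. UPF2 had 11.4, 11.3 and 8.33 FPKM, SMG6 10.9, 9.34 and 9.46. The paralogs were lowest, with UPF3B at 5.52, 4.62 and 3.36 FPKM and UPF3A at 4.38, 5.23 and 3.94. In NC the counting intervals of SMG8 and SMG9 overlapped, as did those of UPF2 and SMG6, so their order there was not resolved. UPF3B stood above UPF3A in NC, with intervals apart, and below it in GAS5 and siYAP, with intervals that overlapped, and SMG6 stood above UPF2 only in siYAP.

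**Figure D3:**
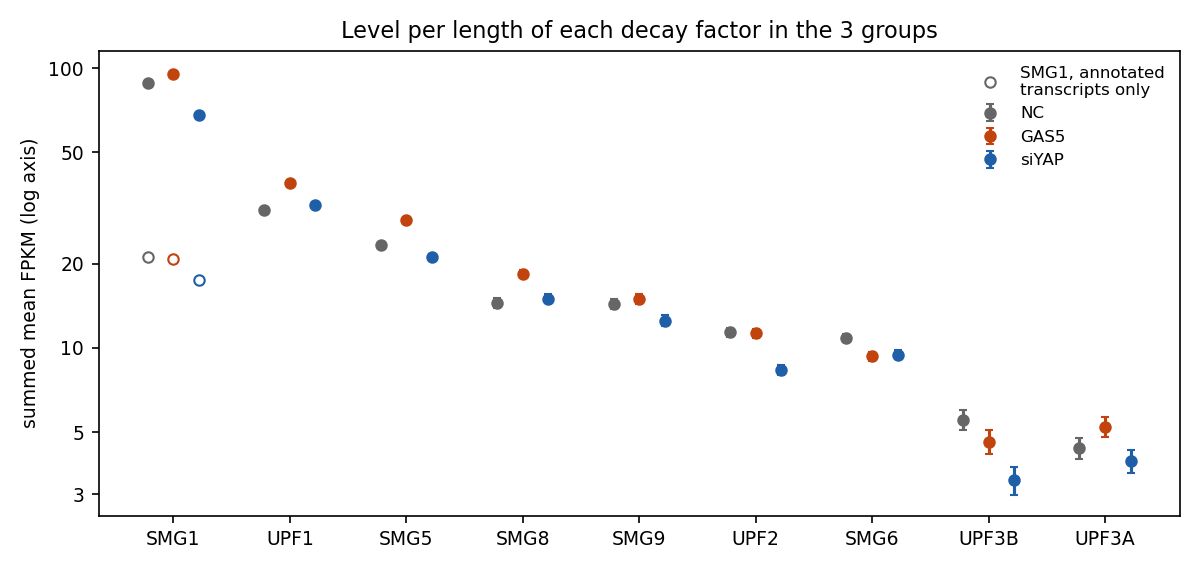
Summed mean FPKM (vertical log axis) of each decay factor in NC, GAS5 and siYAP, with bars for 95% counting intervals and open circles for the annotated SMG1 transcripts alone. The order of the genes spans SMG1 at 88.4 FPKM to UPF3A at 4.38 FPKM in NC, and the points of UPF3A and UPF3B change places between groups.

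Among single transcripts of the members, 66 of 96 passed the filter for GAS5 against NC. Of these, 5 were higher in GAS5 by a fold of 2, where 10.7% of all transcripts were, and 9 were lower, against 9.50%. In siYAP, 4 of 64 were higher, against 9.46%, and 15 were lower, against 11.4%. Between GAS5 and siYAP, 7 of 63 were higher in GAS5, against 12.5%, and 3 were lower, against 10.1%. Most of these belonged to SMG1. Without it, 2 of 19 transcripts were higher and 3 lower in GAS5 than in NC. In siYAP, 2 of 18 were then higher and 4 lower than in NC, beside the same shares over all transcripts.

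UPF1 was listed with 3 transcripts. An assembled transcript (TCONS_00069357) held 79.7% of the NC counts and had 3479 mean counts in NC against 3710 in GAS5 and 3503 in siYAP, with a log2 difference from NC of 0.20 in GAS5 and 0.12 in siYAP. Its exons are not given in the sources used here, so it is not known whether it holds the 33-base segment. The pair of Ensembl transcripts was summed to 886 mean counts in NC against 1470 in GAS5 and 926 in siYAP, a log2 difference of 0.84 in GAS5 and 0.18 in siYAP. The GAS5 value of UPF1 was therefore larger in the annotated transcripts than in the gene sum.

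Within that pair, the long-loop transcript (ENST00000599848) had 742 mean counts in NC against 1061 in GAS5 and 647 in siYAP. The short-loop transcript (ENST00000262803) had 144 in NC against 409 in GAS5 and 279 in siYAP, a log2 difference from NC of 1.60 in GAS5 (1.41 to 1.81) and 1.06 in siYAP (0.86 to 1.28). Among annotated member transcripts that passed the filter in both comparisons with NC, it was the only one higher by a fold of 2 in both treated groups. The share of all transcripts that did so was not counted, and both comparisons use the same NC mean. The long-loop share of the pair was 83.7% in NC (exact binomial interval 81.9 to 85.4), 72.2% in GAS5 (70.5 to 73.8) and 69.8% in siYAP (67.7 to 71.9). NC thus stood apart from both treated groups, whose intervals overlapped each other. These intervals leave out error in dividing reads between the transcripts.

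UPF3B was listed with 5 transcripts and had the largest shift among its transcripts of any member. The transcript without exon 8 (ENST00000345865) had 155 mean counts in NC against 38.5 in GAS5 and 60.5 in siYAP, a log2 difference of -1.85 in GAS5 (-2.28 to -1.53) and -1.21 in siYAP (-1.55 to -0.93). The transcript with the 39-base exon (ENST00000276201) had 18.7 in NC against 73.5 in GAS5 and 20.3 in siYAP, a log2 difference of 1.98 in GAS5 (1.57 to 2.66) and 0.21 in siYAP (-0.41 to 0.94). The share of the pair that holds exon 8 was 10.7% in NC (7.64 to 14.4), 65.6% in GAS5 (59.0 to 71.8) and 25.3% in siYAP (18.8 to 32.7). No pair of these intervals overlapped, but they leave out error in dividing reads between the transcripts, so the size of the shift is uncertain.

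Another UPF3B transcript (ENST00000619445), with a coding sequence of 217 codons against 470 and 483 in the other pair, had 86.4 mean counts in NC against 95.6 in GAS5 and 63.6 in siYAP. The lower UPF3B sum in GAS5 therefore came with fewer counts on the transcript without exon 8 and more on the transcript with it. The largest change in any 1 transcript's share of the gene was 37.3 percentage points for UPF3B in GAS5, 15.7 in siYAP and 21.6 between GAS5 and siYAP. Among the 7 members with at least 2 transcripts that reached 10 mean counts in a group, a shift of at least 20 points was seen in 1 for GAS5 against NC, where 11.0% of all such genes had such a shift, in 0 for siYAP against NC, where 11.6% did, and in 1 for GAS5 against siYAP, where 11.5% did. The other 6 members shifted by at most 8.09 points in GAS5, beside a median of 5.38 over all such genes. The 20-point limit was chosen after the data were seen.

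UPF3A gave a contrast to its paralog. The transcript with exon 4 (ENST00000375299) had 155.4 mean counts in NC against 155.3 in GAS5 and 128.4 in siYAP, and the transcript without it (ENST00000351487) had 124.1, 146.3 and 101.6. The share of the pair that holds exon 4 was 55.6% in NC (51.4 to 59.8), 51.5% in GAS5 (47.4 to 55.5) and 55.9% in siYAP (51.2 to 60.5), with all 3 intervals overlapping.

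**Figure D4:**
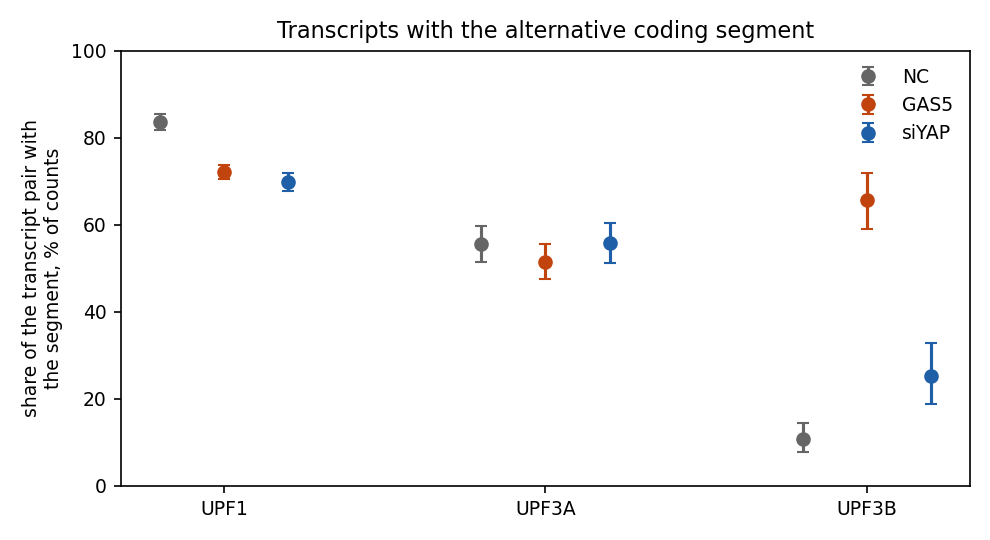
Share of estimated counts (vertical axis, percent) held by the transcript with the alternative coding segment, within its transcript pair, for UPF1, UPF3A and UPF3B in NC, GAS5 and siYAP. Bars are 95% exact binomial intervals, which leave out error in dividing reads between transcripts. UPF3B spans 10.7% in NC to 65.6% in GAS5, UPF1 is highest in NC at 83.7%, and the UPF3A intervals overlap.

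UPF2 had 3 transcripts, each with a coding sequence of 3816 bases. The most abundant (ENST00000357604) had 1519 mean counts in NC against 1405 in GAS5 and 1121 in siYAP, and a log2 difference of 0.00 in GAS5 and -0.32 in siYAP. The minor transcript ENST00000356352 had 35.3, 12.6 and 5.92 mean counts, a log2 difference of -1.25 in GAS5 (-2.12 to -0.72) and -2.15 in siYAP (-3.47 to -1.56). ENST00000397053 had 87.6 in NC against 111.7 in GAS5 and 34.2 in siYAP, so all 3 UPF2 transcripts were lowest in siYAP.

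SMG9 was carried by ENST00000601170, with 772 mean counts in NC against 729 in GAS5 and 626 in siYAP, and by ENST00000270066, with 384, 470 and 354. On the log2 scale ENST00000270066 was higher than NC by 0.40 in GAS5 (0.26 to 0.54) and ENST00000601170 by 0.03 (-0.08 to 0.13). An assembled SMG9 transcript (TCONS_00075495) had 17.2 mean counts in NC against 0 in GAS5 and 37.8 in siYAP, with a log2 difference of 1.16 in siYAP (0.67 to 1.90).

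SMG5 (ENST00000361813) was listed with a single transcript, and SMG6 had essentially all its counts on ENST00000263073, with 11 of its 13 transcripts at 0 in every group. SMG8 was mainly ENST00000300917, with 1259 mean counts in NC against 1519 in GAS5 and 1293 in siYAP, beside ENST00000578922 with 33.8, 26.6 and 13.6. For these 3 genes the gene values above are in effect the values of 1 transcript.

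The main SMG1 transcripts were ENST00000446231, with 3314 mean counts in NC against 3022 in GAS5 and 2924 in siYAP, and ENST00000565324, with 2148, 1919 and 1812. In siYAP both lay closer to NC than the gene sum, with log2 differences in GAS5 and siYAP of -0.02 and -0.07 for ENST00000446231 and -0.05 and -0.13 for ENST00000565324. Among the assembled SMG1 transcripts, 5 passed a fold of 2 in both comparisons with NC. The share of all transcripts that did so was not counted, and both comparisons use the same NC mean. Of the 5, TCONS_00054030 with 126, 48.1 and 32.3 mean counts and TCONS_00053585 with 77.2, 34.2 and 30.8 were lower in both treated groups. TCONS_00054035 had 37.6 mean counts in NC against 0 in GAS5 and 4.53 in siYAP, TCONS_00053627 had 28.6 in NC and 0 in both treated groups, and TCONS_00053870 had 0 in NC against 20.8 in GAS5 and 15.2 in siYAP. How the counting divided reads between these transcripts and the annotated ones is not known. The SMG1 sums did not fall on multiples of 0.5 (tolerance 0.01) in any group, as means of 2 whole counts would. Those of 7 other members did in all 3 groups. Dividing reads among SMG1 transcripts alone would leave the sum on such a multiple, so the SMG1 sum is itself an estimate.

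The other genes of the pathway were described from lists by role. Of 10 further decay factors and helpers, 7 were above NC in GAS5 and 3 below (median log2 difference 0.05), and 4 were above and 6 below in siYAP (median -0.09). DHX34, a helicase that helps SMG1 to phosphorylate UPF1, was highest in GAS5 at 0.43, and NBAS was lowest at -0.13. In siYAP the decapping activator PNRC2 was lowest at -0.53 and the helicase MOV10 highest at 0.30.

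The 9 genes of the exon junction complex and its partners had a median of 0.17 in GAS5, with 7 above NC and 2 below, and -0.06 in siYAP, with 4 above and 5 below. MAGOHB, a core subunit, was highest in GAS5 at 0.52 and lowest in siYAP at -0.44, and its near-identical paralog MAGOH, with which reads could have been confused, was lowest in GAS5 at -0.02 and had -0.33 in siYAP. EIF4A3, the core helicase that clamps the complex onto RNA, had 0.38 in GAS5 and 0.11 in siYAP, and PYM1, which takes the complex apart, was highest in siYAP at 0.23.

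The translation termination list held 5 genes, of which the release factor GSPT2 was at 0 in all groups. The other 4 had medians of -0.03 in GAS5 and -0.04 in siYAP, with 1 above NC and 3 below in both. The poly(A)-binding protein PABPC1 was lowest in GAS5 at -0.24 and the release factor ETF1 lowest in siYAP at -0.19, and the release factor GSPT1 was highest in both at 0.06. The 13 general decay enzymes had medians of -0.01 in GAS5 and -0.13 in siYAP, with 5 above NC in GAS5 and 2 in siYAP. The decapping cofactor DCP1A was lowest in siYAP at -0.55, the deadenylase scaffold CNOT1 lowest in GAS5 at -0.24, and EDC3 highest in both at 0.25 and 0.23.

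Known substrate mRNAs of the pathway spread widely, without a common direction. Of 13 such genes, 4 were higher and 4 lower in GAS5 by 0.32 or more on the log2 scale, where 13.2% and 11.9% of all genes were, with a median of -0.13. In siYAP 2 were higher and 0 lower, where 15.9% and 16.8% of all genes were, with a median of 0.06. ATF3, a stress-induced transcription factor, was highest in GAS5 at 1.37 and TRIB3, a pseudokinase of the stress response, lowest at -0.86. In siYAP the uridine phosphorylase UPP1 was highest at 0.81, and DDIT3, a transcription factor of the stress response, lowest at -0.28. GADD45A and GADD45B, stress genes whose mRNAs are direct substrates, were above NC in both groups, at 0.54 and 0.73 in GAS5 and 0.26 and 0.29 in siYAP. MAP3K14 was also above NC in both, while ATF4, DDIT3, ASNS and CHAC1 were below NC in both. BAG1 was above NC in GAS5 at 0.25, but its siYAP value of 0.06 (-0.07 to 0.19) was not resolved from NC. TBL2 was not resolved from NC in either group, at -0.02 in GAS5 (-0.10 to 0.07) and -0.01 in siYAP (-0.09 to 0.07). The rest of the list lay above NC in 1 group and below it in the other. Most genes of this list are also known as stress-response genes.

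Of 43 listed transcripts that GENCODE annotates as subject to nonsense-mediated decay, 13 passed the filter in GAS5 against NC and had a median log2 difference of -0.40, with 4 above NC and 9 below. In siYAP against NC 13 passed, with a median of -0.39, 3 above and 10 below, and in GAS5 against siYAP 11 passed, with a median of -0.19. Protein-coding transcripts had medians of 0.01, 0.00 and 0.01. None of the 43 belonged to a decay factor, and the medians moved with the filter, to -0.047 and -0.24 without it in the comparisons with NC and to 0.29, the opposite direction, in GAS5 against siYAP.

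**Figure D5:**
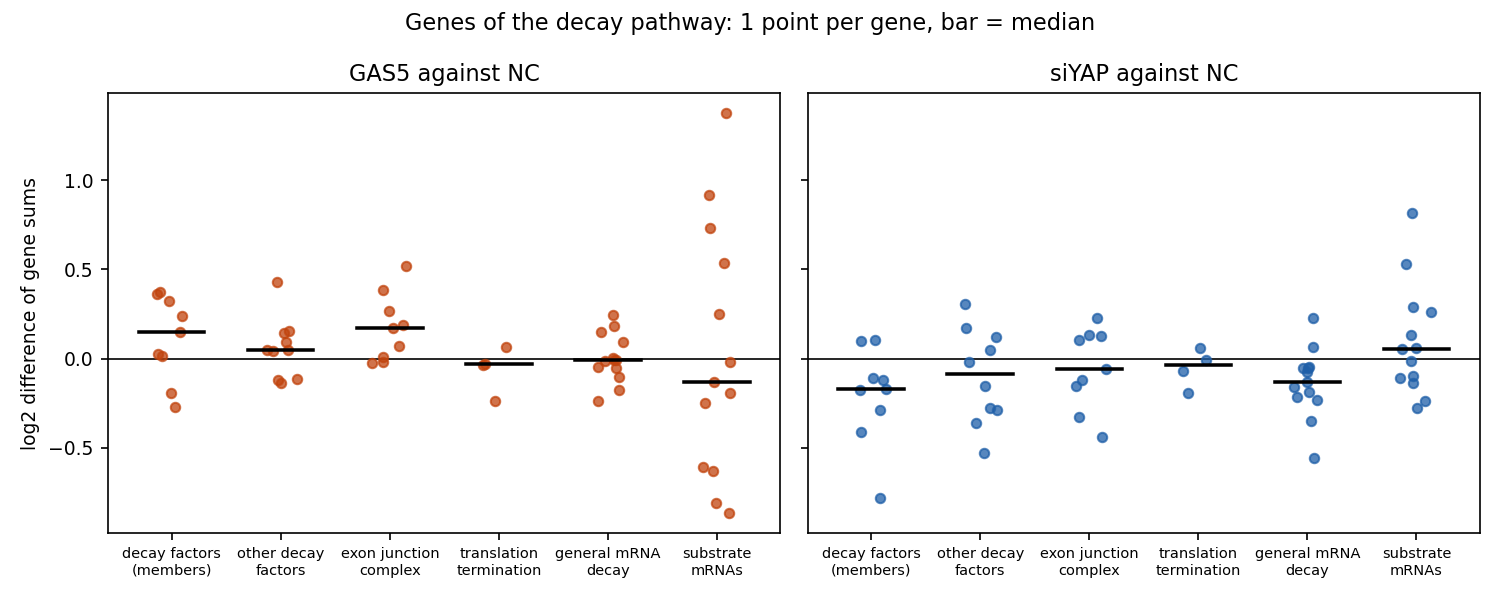
Log2 difference of gene sums (vertical axis) from NC for each gene of the pathway lists in GAS5 and siYAP, with 1 point per gene and a bar at the median. The bar of the 9 decay factors lies at 0.15 in GAS5 and -0.17 in siYAP, and the substrate mRNAs spread from -0.86 to 1.37 in GAS5.

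The highest and the lowest member were also matched to the other pathway genes by the distance between their log2 differences over the 3 groups, among 45 genes. The genes nearest to SMG8 were EIF4A3 at a distance of 0.0067, UPF1 at 0.011 and DHX34 at 0.038. Those nearest to UPF3B were PNRC2 at 0.18, UPF2 at 0.27 and DCP2 at 0.31. These distances rest on 3 means and describe the values only.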

How the data were processed

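RNA of 6 HCT116 libraries was sequenced, 2 in each of 3 groups. The authors deposited, per mRNA transcript, expected counts (estimated counts, not normalized) and FPKM (fragments scaled by transcript length and library size), each averaged over the libraries of a group. TopHat2 2.1.1 is named in the submitters' processing notes, and the counting tool and genome build are not given in the sources used here. The authors also deposited a log2 fold change between group means, a p-value and an FDR per transcript, which were not used. Every mean was a multiple of 0.005, with no separate library value, so the edgeR quasi-likelihood test of the design could not be run. Counts without a symbol were 0.22%.

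Counts were summed by symbol in the siYAP table and scaled by TMM for each pair of means (edgeR 4.0.16, R 4.3.3, on gene sums for genes and on transcripts for transcripts), kept by filterByExpr with a minimum count of 10, and compared with a prior count of 2. Python 3.11.15 and scipy 1.17.1 gave exact binomial (Clopper-Pearson) and Poisson intervals at 95% from 2 times the mean count. The steps were tested on simulated Poisson counts with known folds. That simulation held no variation between cultures and no estimated division of reads between transcripts, so it says nothing about those errors. Coordinates and sequences come from GENCODE 29 on GRCh38, where 80779 of 80864 Ensembl transcripts matched.

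The members and gene lists were chosen with earlier results of these data known. Named were all members, the highest and lowest gene of each list, YAP1, each member's most abundant transcript and those past a fold of 2 in both comparisons with NC with at least 10 mean counts. UPF3B ENST00000276201 and ENST00000619445, the UPF1, UPF2, UPF3A, SMG1, SMG8 and SMG9 transcripts outside that rule, EIF4A3, GADD45A and GADD45B were chosen after their values were seen. Alternatives were DESeq2 1.42.0 size factors, total counts, TMM of the other level, FPKM, a prior count of 0.5, Ensembl transcripts only and no filter. Single values of some listed genes are not reported here.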

Additional observations from a re-analysis of the deposited data

How the results depend on the processing

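No paired analysis was possible because each table gives a single mean for a group. The DESeq2 test and leaving out a library could not be run either. Of 192 summary values under the alternatives 164 stayed close to the reported value and 28 moved, of which 1 changed sign, and of 213 values of single members 201 stayed close. The members' median for GAS5 against siYAP, 0.30, was 0.26 with TMM of the other level, 0.41 from FPKM, 0.40 with Ensembl transcripts only and 0.33 without SMG1. With Ensembl transcripts only, 1 member passed a fold of 1.5 in GAS5 against NC (UPF1, at 0.85) and 1 in GAS5 against siYAP. Member transcripts past a fold of 2 in GAS5 against NC were then 3 higher and 3 lower, in siYAP against NC 2 and 4, and in GAS5 against siYAP 3 and 1. Without SMG1, added after the data were seen, they were 2 and 3 of 19, 2 and 4 of 18, and 2 and 1 of 18. Without the filter 7 were higher in siYAP against NC and 6 lower in GAS5 against siYAP. The median of transcripts annotated as subject to decay was -0.51 from FPKM and -0.047 without the filter in GAS5 against NC, -0.46 and -0.24 in siYAP against NC, and in GAS5 against siYAP -0.14 with total counts, -0.16 with TMM of the other level, -0.15 from FPKM and 0.29 without the filter, where the reported value was -0.19 and the sign turned. The cause was not tested. The sign changed for UPF2 in GAS5 (-0.010 with total counts and -0.013 from FPKM, against 0.02) and for SMG1 in GAS5 (-0.0026 with total counts and -0.03 with Ensembl transcripts only, against 0.02). Depth limits UPF3A and UPF3B most, at 152.5 to 304.5 mean counts.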

Other observations

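The kinase SMG1 belongs to the family of PI3K-related kinases, and the other 5 members of that family were looked at beside it. Their median log2 difference from NC was -0.04 in GAS5 and -0.32 in siYAP, where the SMG1 gene sum had 0.02 and -0.29. That sum includes the assembled transcripts, and the Ensembl transcripts of SMG1 alone had -0.03 and -0.15. PRKDC, the catalytic subunit of DNA-dependent protein kinase, was the lowest in both, at -0.37 and -0.42. ATR, the kinase of the replication stress checkpoint, was above NC in GAS5 at 0.32 and below it in siYAP at -0.35, and ATM had -0.04 and -0.32. MTOR, the growth kinase, stayed near NC at 0.14 and 0.01, and the scaffold TRRAP had -0.05 and -0.08. No test could be run on these means.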
